A study of Mus musculus with 19 samples.

Results

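The Slc25 genes encode the mitochondrial carriers, a family of inner membrane transporters, and their expression was followed here through a transient cardiomyopathy in mice. Members were all probes of the deposited array table whose platform symbol begins with Slc25a followed by a digit. The rule found 39 genes on 57 probes, of 16593 genes on 25697 probes in the table. Of these, 51 probes of 36 genes passed the filter on mean intensity and were tested. The other 6 probes were dimmer, and Slc25a21, Slc25a31 and Slc25a48 had no probe above the filter. Slc25a4 and Slc25a37 were not analysed here.

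Left ventricular myocardium was taken from male MerCreMer mice, aged 12-20 weeks and back-crossed to C57Bl6/J. In these mice a cardiac-specific myosin heavy chain promoter drives a Cre recombinase joined to mutated estrogen receptor, which becomes active in cardiomyocytes when tamoxifen is given. Controls at baseline (5 arrays) were followed by day 2 (4 arrays, 2 days of tamoxifen), day 3 (3 arrays, 3 days), day 10 (3 arrays, 5 days and then 5 days without it) and day 28 (4 arrays, 5 days and then 23 days without it). Tamoxifen free base was given by intraperitoneal injection in peanut oil at 1 mg (40 mg/kg) a day. By the series text, heart function was worst at day 10 and had recovered by 4 weeks, so the comparisons ask which carriers changed on the way to failure and which were back at control level afterwards. All mice carried the transgene, and no vehicle group and no group without Cre was used here, so the effects of tamoxifen, of active Cre and of time cannot be told apart.

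Most mitochondrial carriers exchange 1 metabolite for another across the inner membrane, which is otherwise closed to charged molecules. In the heart they bring phosphate and ADP to the ATP synthase, export ATP, carry acylcarnitines in for fatty acid oxidation, and run the malate-aspartate shuttle that moves the electrons of cytosolic NADH into the mitochondrion. Other members carry amino acids, coenzyme A, nucleotides, iron and methyl donors, 1 sits in the peroxisome membrane, and several have no settled substrate.

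All values below are log2 of the background-corrected intensity with 50 added, which makes the fold change of a dim probe look smaller than it is, and levels of different probes cannot be set against each other. A probe was called where limma's adjusted p (Benjamini-Hochberg over all 19273 probes tested) was under 0.05, and a gene with several probes is represented by the brightest. The labels number the arrays of a group but do not say that each came from a separate mouse, so p-values measure the spread between these arrays. In a principal component analysis of all probes tested, the component 2 scores of controls 4 and 5 were 20.5 and 20.1. Those of day 28 (21.1 to 23.1) and of day 10 (19.65 to 24.09) were close to these, and those of controls 1 to 3 were 1.59 to 4.38. On component 1, controls 4 and 5 (-18.08 and -18.63) lay near day 28 (-16.68 to -9.37) and far from day 10 (54.34 to 72.7). Controls 1 to 3 scored -33.04 to -30.43 there. The cause of this split of the controls was not tested. Results were therefore also computed with controls 1 to 3 alone. Myh6, which encodes the cardiac myosin heavy chain that defines cardiomyocytes, had an intensity of at least 12653 on every array.

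More Slc25 probes were called lower than higher against control at day 2, day 3 and day 10. At day 2, 6 of 51 Slc25 probes were called lower (11.8%, 5 genes) and 0 higher, against 3.24% lower and 3.39% higher among all probes. At day 3, 20 Slc25 probes were lower (39.2%, 14 genes) and 5 higher (9.80%), against 14.3% and 14.1%. These 5 include Slc25a41, which passed the intensity filter through its day 3 arrays. At day 10, 23 were lower (45.1%, 15 genes) and 5 higher (9.80%), against 18.1% and 17.7%.

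The share called lower was thus above that of all probes at each of the 3 times, and the share called higher was below it. The median log2 change of the Slc25 probes was -0.08 at day 2, -0.29 at day 3 and -0.28 at day 10, beside 0.00, -0.02 and -0.03 for all probes. The falls reached at least 2-fold on 6 probes at day 3 and on 12 at day 10, and 1 probe was at least 2-fold higher at each time. The share of all probes with changes of this size was not counted, so these counts only describe the members.

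At day 28, 0 Slc25 probes were called against control by limma in either direction, where 0.690% of all probes were lower and 1.11% higher. At an unadjusted p under 0.05 by limma, 5 Slc25 probes were lower and 2 higher. The share of all probes at that looser threshold was not counted, so these 2 counts cannot be set against the percentages above. Day 28 set against day 10 had 22 Slc25 probes higher (43.1%, 14 genes) and 3 lower (5.88%), against 15.0% and 15.0% of all probes. Between the early times, day 3 against day 2 had 12 Slc25 probes lower (23.5%) and 4 higher (7.84%), against 10.0% and 8.74% of all probes. Day 10 against day 3 had 18 lower (35.3%) and 5 higher (9.80%), against 15.4% and 16.0%. Slc25a41, which passed the filter through its day 3 arrays, was among these 18 and among the 4 higher at day 3 against day 2. The day 3 against day 2 count of 16 rests on the arrays used: it was 9 without day 3 replicate 2, 8 without day 3 replicate 3 and 10 when only the arrays of both groups were fitted.

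**Figure D1:**
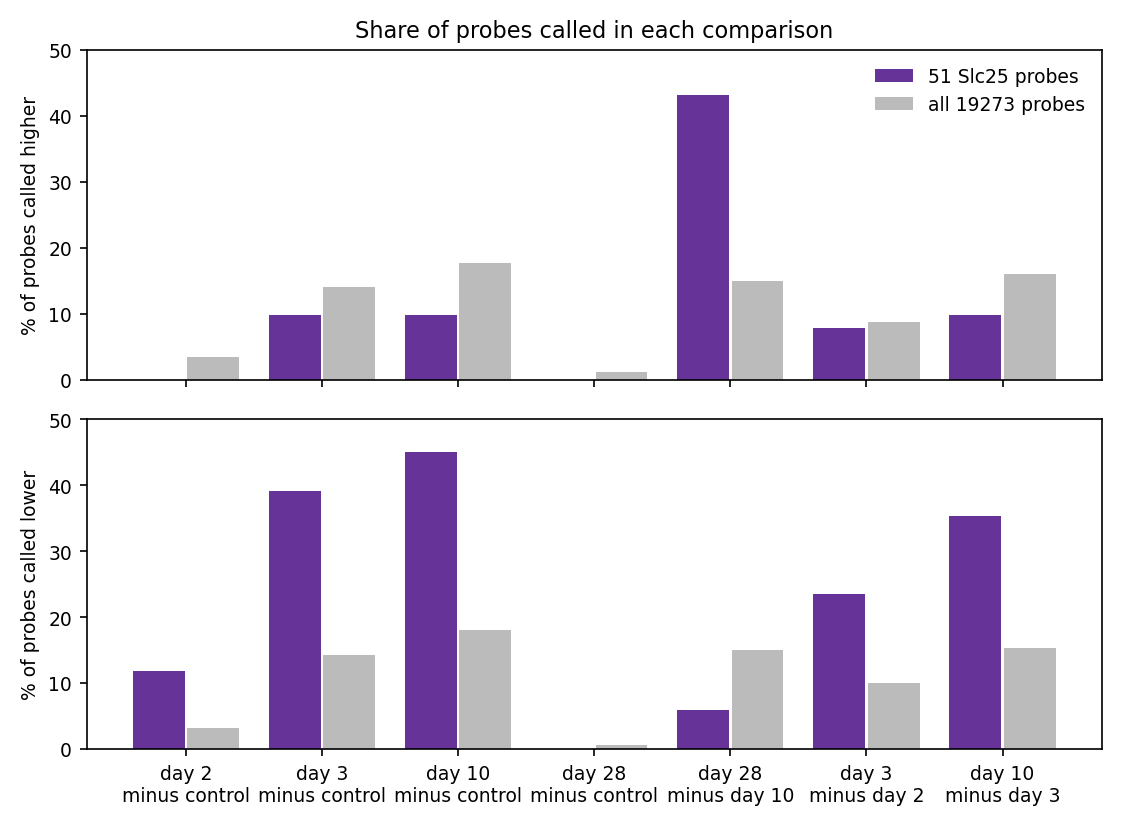
Percentage of probes called higher (upper panel) and lower (lower panel) in each of 7 comparisons, for the 51 Slc25 probes tested (purple) and all 19273 probes tested (grey). Slc25 probes stand above all probes among those called lower at day 10 (45.1% and 18.1%) and among those called higher at day 28 against day 10 (43.1% and 15.0%).

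**Figure D2:**
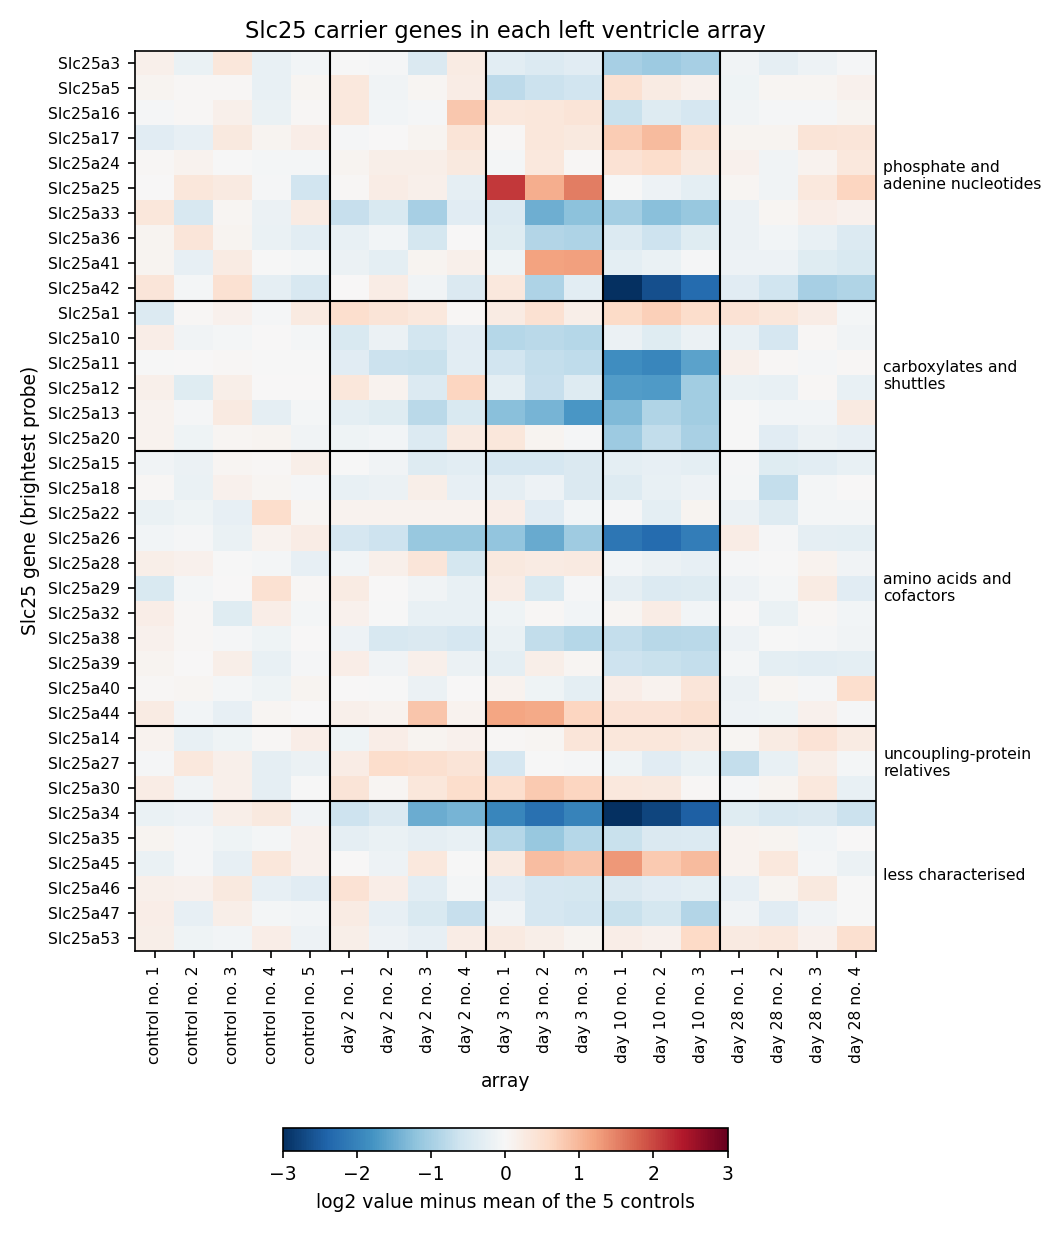
Log2 value of the brightest probe of each of 36 Slc25 genes minus its mean over the 5 controls, for each of the 19 arrays, with genes grouped by what they carry. Blue cells at day 10 mark Slc25a34, Slc25a42, Slc25a26, Slc25a11 and Slc25a12, and the red cells at day 3 mark Slc25a25.

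The carboxylate and shuttle carriers held the largest median fall of the 5 role groups at day 10, with 4 of 6 genes lower, 1 higher and a median log2 change of -1.02, where 18.1% of all probes were lower and 17.7% higher. Slc25a11, the oxoglutarate/malate carrier of the malate-aspartate shuttle, had log2 values of 12.45, 12.47, 12.50, 12.45 and 12.44 in the controls, 12.12, 11.82, 11.79 and 12.15 at day 2, 11.89, 11.75 and 11.70 at day 3, 10.60, 10.52 and 10.87 at day 10, and 12.61, 12.50, 12.42 and 12.50 at day 28. Every day 2, day 3 and day 10 array lay below every control, with the day 10 arrays lowest, and the day 28 arrays overlapped the controls. Slc25a11 fell by 0.49 ± 0.11 (SE) log2 at day 2 (adjusted p = 0.00581), by 0.68 ± 0.12 at day 3 (adjusted p = 8.64e-05) and by 1.80 ± 0.12 at day 10, which is 3.48-fold lower (adjusted p = 7.02e-11). Its other probes changed by -1.90 and -2.20 at day 10.

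Slc25a12 and Slc25a13 are the aspartate/glutamate carriers, the other inner membrane step of that shuttle. Slc25a12 had log2 values of 11.49, 10.97, 11.51, 11.34 and 11.35 in the controls, 11.68, 11.44, 10.92 and 11.97 at day 2, 11.03, 10.64 and 10.94 at day 3, 9.65, 9.62 and 10.29 at day 10, and 11.13, 11.12, 11.36 and 11.11 at day 28. Its day 10 arrays lay below all others, while day 2 arrays lay on both sides of the controls. It fell by 1.48 ± 0.19 (SE) at day 10 (2.79-fold lower, adjusted p = 9.18e-07), and differed from control by -0.46 at day 3 without being called (adjusted p = 0.0716). That day 3 difference was called when only both groups were fitted (adjusted p = 0.0418), with array weights (adjusted p = 0.0389) and without control replicate 2 (adjusted p = 0.0346).

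Slc25a13 had log2 values of 8.20, 8.08, 8.37, 7.83 and 8.04 in the controls, 7.81, 7.73, 7.29 and 7.65 at day 2, 6.85, 6.72 and 6.37 at day 3, 6.77, 7.21 and 7.05 at day 10, and 8.10, 8.02, 8.03 and 8.38 at day 28. Here the day 3 arrays were at or near the bottom, day 10 overlapped day 3, and both lay below every control. Slc25a13 fell by 1.46 ± 0.15 (SE) at day 3 (2.75-fold lower, adjusted p = 7.24e-08) and by 1.09 ± 0.15 at day 10 (2.14-fold lower, adjusted p = 2.74e-06). The day 2 fall of 0.49 (adjusted p = 0.0348) was lost without control replicate 1, 2, 3 or 5, without day 2 replicate 3 or 4, when only both groups were fitted, and with a replicate block (adjusted p = 0.0726). The second probe of Slc25a13 was called lower at day 3 (-1.01) and day 10 (-0.76) too.

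Slc25a20, the carnitine/acylcarnitine carrier of fatty acid oxidation, had log2 values of 13.30, 13.05, 13.25, 13.27 and 13.08 in the controls, 13.07, 13.10, 12.78 and 13.45 at day 2, 13.54, 13.28 and 13.15 at day 3, 12.09, 12.44 and 12.21 at day 10, and 13.17, 12.85, 13.01 and 12.94 at day 28. The day 10 arrays were the lowest of all, and the other times overlapped the controls. It fell by 0.94 ± 0.14 (SE) at day 10 (1.92-fold lower, adjusted p = 7.94e-06), with -1.14 on its second tested probe, and differed by 0.13 at day 3 (adjusted p = 0.555). The difference between day 10 and day 3 was -1.07 ± 0.16 (adjusted p = 1.04e-05). The muscle acyltransferase gene Cpt1b, which makes acylcarnitine at the outer membrane, changed by -2.40 at day 10 (adjusted p = 1.27e-10) and by 0.09 at day 3 (adjusted p = 0.742). Cpt2, which turns acylcarnitine back into acyl-CoA inside, changed by -2.27 at day 10 (adjusted p = 7.02e-11) and by -0.84 at day 3 (adjusted p = 0.00011).

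Slc25a1, the citrate carrier, had log2 values of 6.74, 7.19, 7.28, 7.11 and 7.43 in the controls, 7.64, 7.53, 7.45 and 7.17 at day 2, 7.38, 7.60 and 7.32 at day 3, 7.72, 7.86 and 7.68 at day 10, and 7.57, 7.50, 7.38 and 7.10 at day 28. The day 10 arrays lay above every control and the other times overlapped them. Slc25a1 was 0.60 ± 0.15 (SE) higher at day 10 (1.52-fold, adjusted p = 0.00209), but its second probe changed by 0.09 (adjusted p = 0.66). Slc25a10, the dicarboxylate carrier, fell by 0.84 ± 0.13 at day 3 (adjusted p = 1.65e-05) and differed by -0.24 at day 10 (adjusted p = 0.155).

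Among 10 carriers of phosphate, adenine nucleotides, pyrimidine nucleotides and coenzyme A, 5 were lower and 2 higher at day 10. Of all probes, 18.1% were lower and 17.7% higher, so the count higher is near that share. Slc25a3, the phosphate carrier that supplies the ATP synthase, had log2 values of 15.02, 14.67, 15.23, 14.66 and 14.80 in the controls, 14.85, 14.83, 14.44 and 15.12 at day 2, 14.57, 14.47 and 14.54 at day 3, 13.88, 13.80 and 13.89 at day 10, and 14.77, 14.61, 14.73 and 14.85 at day 28. The 3 day 10 arrays lay close together and below all others, and the day 3 arrays lay just below the lowest control. Slc25a3 fell by 1.02 ± 0.14 (SE) at day 10 (2.03-fold lower, adjusted p = 3.49e-06) and by 1.51 on its second probe. The day 3 difference of -0.35 was not called (adjusted p = 0.0702), but it was called without background correction (adjusted p = 0.0488), with array weights (adjusted p = 0.0132), with controls 1 to 3 alone (adjusted p = 0.0379) and without control replicate 2 or 4. At day 3 the second probe was called lower (-0.53, adjusted p = 0.00884) unless day 3 replicate 2 was left out (adjusted p = 0.114).

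Slc25a5, an ADP/ATP exchanger of the inner membrane, had log2 values of 14.29, 14.23, 14.24, 13.98 and 14.25 in the controls, 14.50, 14.10, 14.25 and 14.41 at day 2, 13.41, 13.55 and 13.63 at day 3, 14.66, 14.45 and 14.32 at day 10, and 14.06, 14.26, 14.27 and 14.33 at day 28. The day 3 arrays lay below every other array, and the day 10 arrays lay above every control. Slc25a5 fell by 0.67 ± 0.12 (SE) at day 3 (1.59-fold lower, adjusted p = 0.000184). Its day 10 difference of 0.28 ± 0.12 was not called (adjusted p = 0.0848), and it was called without background correction (adjusted p = 0.0383) and after cyclic loess (0.42, adjusted p = 0.00957). Day 10 stood 0.95 ± 0.14 above day 3 (adjusted p = 1e-05).

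Slc25a42, which exchanges coenzyme A, had log2 values of 9.99, 9.58, 10.08, 9.37 and 9.14 in the controls, 9.65, 9.85, 9.53 and 9.20 at day 2, 9.94, 8.70 and 9.31 at day 3, 6.56, 7.00 and 7.33 at day 10, and 9.30, 9.03, 8.65 and 8.73 at day 28. Every day 10 array lay more than 1 log2 unit below every other array, and 1 of the 4 day 28 arrays lay above the lowest control. Slc25a42 fell by 2.67 ± 0.24 (SE) at day 10 (6.37-fold lower, adjusted p = 6.13e-09), and differed by -0.32 at day 3 (adjusted p = 0.38). Slc25a17, the carrier of the peroxisome membrane for coenzyme A and related cofactors, had log2 values of 9.06, 9.16, 9.69, 9.49 and 9.61 in the controls, 9.35, 9.41, 9.48 and 9.79 at day 2, 9.44, 9.74 and 9.70 at day 3, 10.16, 10.36 and 9.86 at day 10, and 9.48, 9.47, 9.78 and 9.78 at day 28. Its day 10 arrays were the highest and did not overlap the controls. It was 0.73 ± 0.16 higher at day 10 (1.65-fold, adjusted p = 0.0006).

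Slc25a24, Slc25a25 and Slc25a41 encode ATP-Mg/phosphate carriers, which change the total adenine nucleotide of the matrix. Slc25a25 had log2 values of 8.47, 8.82, 8.73, 8.44 and 7.89 in the controls, 8.50, 8.69, 8.62 and 8.21 at day 2, 10.59, 9.57 and 9.99 at day 3, 8.47, 8.31 and 8.18 at day 10, and 8.54, 8.38, 8.80 and 9.12 at day 28. Its 3 day 3 arrays stood above all others, and every other time overlapped the controls. Slc25a25 was 1.58 ± 0.21 (SE) higher at day 3 (2.99-fold, adjusted p = 2.72e-06), by the largest rise of the family against control, and differed by 0.03 at day 2 and -0.15 at day 10. Day 3 exceeded day 2 by 1.55 (adjusted p = 1.98e-05).

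Slc25a41 had log2 values of 6.40, 6.05, 6.55, 6.29 and 6.26 in the controls, 6.13, 6.02, 6.38 and 6.46 at day 2, 6.17, 7.51 and 7.53 at day 3, 6.02, 6.11 and 6.27 at day 10, and 6.15, 6.15, 5.94 and 5.84 at day 28. Day 3 replicates 2 and 3 stood above all other arrays, and day 3 replicate 1 lay within the controls. Slc25a41 was called higher at day 3 (0.76, adjusted p = 0.00783) but not without day 3 replicate 2 (adjusted p = 0.0928) or 3 (adjusted p = 0.0996). Its mean intensity of 162.96 was just above the filter at 162.92, which it passed through those day 3 arrays, so its call is a description.

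Slc25a24 had log2 values of 7.51, 7.59, 7.46, 7.42 and 7.42 in the controls, 7.56, 7.66, 7.67 and 7.77 at day 2, 7.43, 7.80 and 7.51 at day 3, 7.92, 7.9999 and 7.76 at day 10, and 7.61, 7.36, 7.58 and 7.79 at day 28. Its day 10 arrays lay above every control and overlapped day 2, day 3 and day 28. It was 0.42 ± 0.12 (SE) higher at day 10 (adjusted p = 0.00756), where its other probes changed by 0.03 and -0.14 and were not called, and 1 of them was called lower at day 3 (-0.51, adjusted p = 0.0128). Slc25a33, a pyrimidine nucleotide carrier, had log2 values of 10.40, 9.59, 10.13, 9.90 and 10.32 in the controls, 9.39, 9.61, 9.08 and 9.72 at day 2, 9.65, 8.60 and 8.84 at day 3, 9.06, 8.81 and 8.94 at day 10, and 9.89, 10.14, 10.27 and 10.19 at day 28. All day 10 arrays and all but the first day 3 array lay below every control. Slc25a33 fell by 1.04 ± 0.20 at day 3 (adjusted p = 0.000295) and by 1.13 ± 0.20 at day 10 (2.19-fold lower, adjusted p = 6.9e-05). Its fall of 0.62 at day 2 (adjusted p = 0.0439) was lost with controls 1 to 3 alone (adjusted p = 0.149), with a replicate block (adjusted p = 0.106), when only both groups were fitted (adjusted p = 0.0531) and without control replicate 1, 3, 4 or 5 or day 2 replicate 1, 2 or 3. Slc25a36, the other pyrimidine nucleotide carrier, was lower by 0.72 at day 3 (adjusted p = 0.00121) and by 0.47 at day 10 (adjusted p = 0.0247), and the day 10 call was lost without control replicate 2 or day 10 replicate 1 or 2. Slc25a16, linked to coenzyme A uptake, fell by 0.52 at day 10 (adjusted p = 0.00851), a call lost without day 10 replicate 1 (adjusted p = 0.059).

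**Figure D3:**
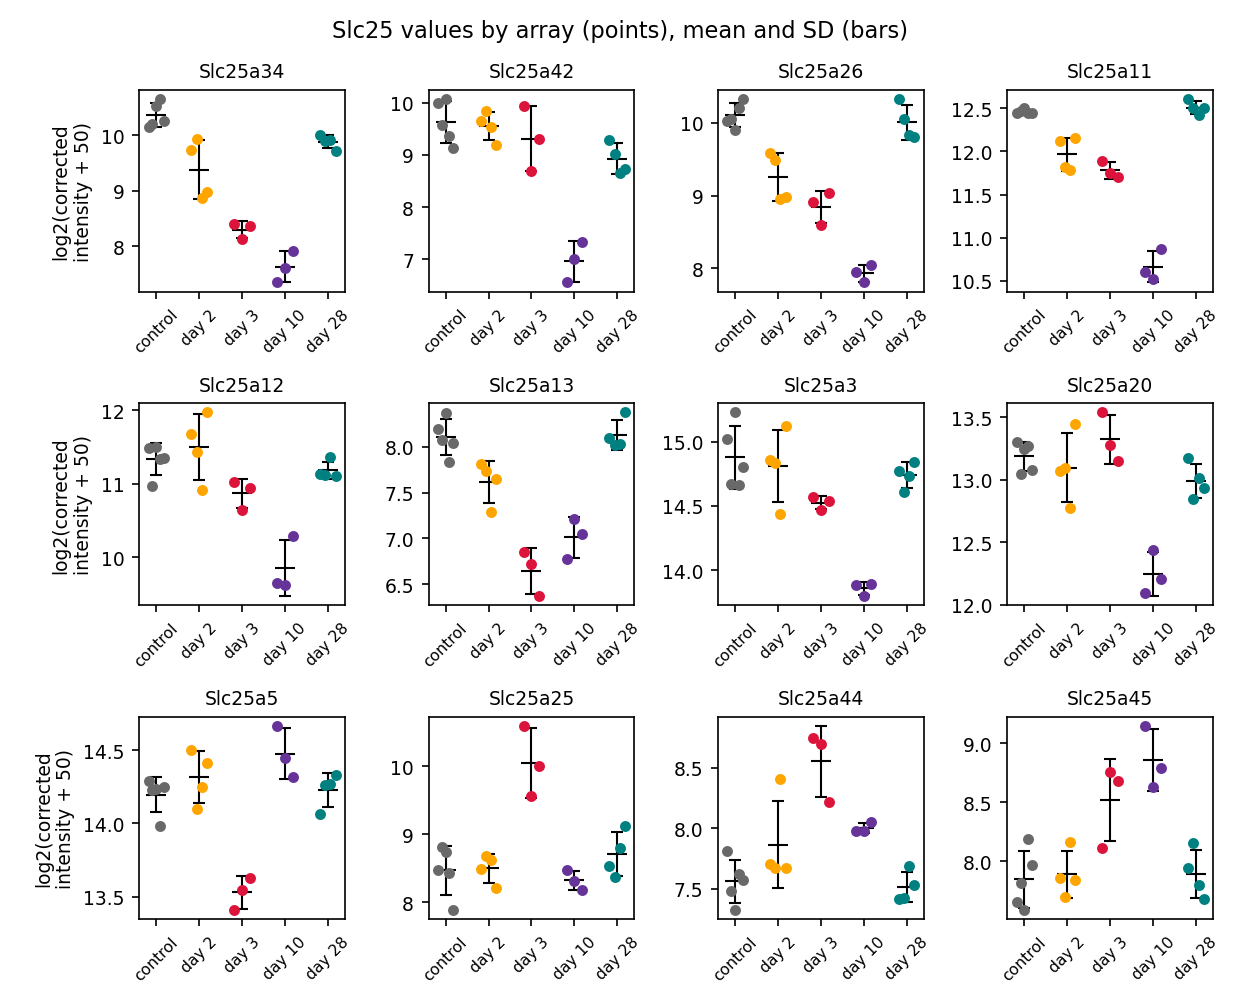
Log2 value of the brightest probe of 12 Slc25 genes in each array (points), with group mean and SD (bars), for 5 controls, 4 day 2, 3 day 3, 3 day 10 and 4 day 28 arrays. Each panel has its own axis. Slc25a34, Slc25a42, Slc25a26 and Slc25a11 are lowest at day 10, Slc25a13 and Slc25a5 at day 3, and Slc25a25 is highest at day 3.

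The promoters of Slc25a25 and Slc25a36 are shown because they are the only members whose windows hold the cyclic AMP response element and because these genes differ in direction at day 3. Each is the RefSeq window (GRCm38.p6) of 250 bases before to 50 after the start, written 5′ to 3′ on the gene's strand, with the element in capitals. The Slc25a25 window, 1 of 3 for this gene, is chr2:32424017-32424316 (minus strand), and the element begins 150 bases before the start. The Slc25a36 window is chr9:97110992-97111291 (minus strand), and the element begins 161 bases before the start.
Slc25a25: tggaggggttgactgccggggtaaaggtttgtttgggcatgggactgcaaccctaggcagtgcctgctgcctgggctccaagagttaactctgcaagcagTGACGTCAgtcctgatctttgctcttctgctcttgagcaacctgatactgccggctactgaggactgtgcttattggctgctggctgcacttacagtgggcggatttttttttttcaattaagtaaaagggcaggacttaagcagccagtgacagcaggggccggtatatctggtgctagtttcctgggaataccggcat
Slc25a36: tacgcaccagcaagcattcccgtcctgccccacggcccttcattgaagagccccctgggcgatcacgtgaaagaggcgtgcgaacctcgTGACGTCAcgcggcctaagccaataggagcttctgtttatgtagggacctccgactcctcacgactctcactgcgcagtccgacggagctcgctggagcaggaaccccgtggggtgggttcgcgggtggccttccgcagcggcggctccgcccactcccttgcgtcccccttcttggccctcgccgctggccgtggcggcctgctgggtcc

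RefSeq windows were found for 32 of the 39 genes (41 windows), and 6 motifs were searched on both strands in these and in all 32851 windows. The cyclic AMP response element TGACGTCA was in 4.88% of member windows and 1.79% of all windows. The E-box CACGTG was in 19.5% of member windows (Slc25a1, Slc25a13, Slc25a14, Slc25a15, Slc25a31, Slc25a33 and Slc25a36) and in 7.15% of all. The Slc25a14 windows with it overlap and hold the same site, so that site is counted more than once. The ETS core CCGGAAG was in 12.2% of member windows (Slc25a3, Slc25a17, Slc25a20, Slc25a25 and Slc25a38) and 8.86% of all. The NRF1 short site GCGCATGC was in 2.44% and 2.71%. The nuclear receptor short site AAGGTCA was in 2.44% and 4.72%, and the longer estrogen-related receptor site TCAAGGTCA, which contains it, was in 0 member windows and 0.423% of all. These are letter matches, given as a description with no test.

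Among 11 carriers of amino acids and cofactors, 3 were lower and 1 higher at day 10, where 18.1% of all probes were lower and 17.7% higher, so the count lower is near that share. Slc25a26, which brings the methyl donor S-adenosylmethionine into the matrix, had log2 values of 10.03, 10.06, 9.90, 10.20 and 10.33 in the controls, 9.59, 9.49, 8.96 and 8.98 at day 2, 8.91, 8.59 and 9.03 at day 3, 7.94, 7.80 and 8.04 at day 10, and 10.33, 10.06, 9.83 and 9.81 at day 28. The day 2, day 3 and day 10 arrays all lay below every control, with day 10 lowest, and day 28 overlapped the controls. Slc25a26 fell by 0.85 ± 0.15 (SE) at day 2 (1.80-fold lower, adjusted p = 0.000793), by 1.26 ± 0.16 at day 3 (2.40-fold lower, adjusted p = 1.59e-06) and by 2.17 ± 0.16 at day 10 (4.51-fold lower, adjusted p = 3.34e-10).

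Slc25a44, a carrier of branched-chain amino acids, had log2 values of 7.81, 7.49, 7.33, 7.62 and 7.57 in the controls, 7.71, 7.67, 8.40 and 7.68 at day 2, 8.75, 8.69 and 8.22 at day 3, 7.98, 7.98 and 8.05 at day 10, and 7.42, 7.42, 7.69 and 7.54 at day 28. The day 3 and day 10 arrays lay above every control, with day 3 higher than day 10, and day 2 replicate 3 stood apart from its group. Slc25a44 was 0.99 ± 0.16 (SE) higher at day 3 (1.98-fold, adjusted p = 3.83e-05) and 0.44 ± 0.16 higher at day 10 (adjusted p = 0.0345). The day 10 call was lost with a replicate block (adjusted p = 0.0806), with controls 1 to 3 alone (adjusted p = 0.0554), without control replicate 2 or 3, and without any 1 of the day 10 arrays (adjusted p = 0.0754, 0.0753 and 0.099).

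Slc25a28, which imports iron, had log2 values of 10.24, 10.18, 10.04, 10.00 and 9.81 in the controls, 9.97, 10.21, 10.43 and 9.53 at day 2, 10.34, 10.31 and 10.33 at day 3, 9.96, 9.89 and 9.81 at day 10, and 10.02, 10.05, 10.17 and 9.95 at day 28. The day 3 arrays lay just above the highest control and above the day 10 arrays, which overlapped the controls. No comparison of Slc25a28 with control was called (0.27 at day 3, -0.17 at day 10). Day 10 against day 3 was called (-0.44, adjusted p = 0.0467), a call lost without any 1 of the 6 arrays, without the filter and after cyclic loess. Of the other carriers tied to iron and heme, Slc25a38, a glycine carrier needed for heme synthesis, fell by 0.60 at day 3 and by 0.78 at day 10 (adjusted p = 4.21e-05) with all of its 3 probes lower at both times, and Slc25a39, needed for mitochondrial glutathione, fell by 0.66 at day 10 (adjusted p = 0.000239). Slc25a15, the ornithine carrier, fell by 0.49 at day 3 (adjusted p = 0.00303), where its dimmer probe changed by -0.06.

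Slc25a14, Slc25a27 and Slc25a30 are relatives of the uncoupling proteins, and 0 of 3 was called at day 10 by limma. Of all probes, 18.1% were lower and 17.7% higher at day 10, so with 3 genes this count is not far from those shares. At an unadjusted p under 0.05 by limma Slc25a14 was higher at day 10 (0.31, adjusted p = 0.0551), and it was called under 6 of the processing alternatives. Slc25a30 had log2 values of 7.37, 7.03, 7.29, 6.88 and 7.12 in the controls, 7.53, 7.20, 7.48 and 7.66 at day 2, 7.64, 7.92 and 7.78 at day 3, 7.45, 7.44 and 7.17 at day 10, and 7.09, 7.21, 7.45 and 6.90 at day 28. The day 3 arrays lay above every control and overlapped the upper day 2 arrays. Slc25a30 was 0.64 ± 0.14 (SE) higher at day 3 (1.56-fold, adjusted p = 0.00123). Ucp3, the uncoupling protein of muscle, fell by 1.04 ± 0.19 at day 10 (adjusted p = 0.000119). It belongs to a list of 4 tested genes of the carrier fold with other symbols, of which 1 was lower and 0 higher at day 10 (median -0.07). At day 2 and at day 3, 1 of these 4 was higher and 0 lower, where 3.39% and 14.1% of all probes were higher.

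The 6 less characterised members included the family's largest fall. Slc25a34, an orphan carrier, had log2 values of 10.16, 10.20, 10.53, 10.66 and 10.26 in the controls, 9.74, 9.94, 8.87 and 8.97 at day 2, 8.40, 8.12 and 8.36 at day 3, 7.36, 7.61 and 7.92 at day 10, and 10.00, 9.89, 9.92 and 9.72 at day 28. Every array after tamoxifen lay below every control. The group mean was lower at each time up to day 10, and the day 28 mean was nearest to that of the controls. Day 2 replicates 1 and 2 lay among the day 28 arrays. Slc25a34 fell by 0.98 ± 0.18 (SE) at day 2 (1.97-fold lower, adjusted p = 0.00128), fell by 2.07 ± 0.20 at day 3 (4.18-fold lower, adjusted p = 1.81e-08) and fell by 2.73 ± 0.20 at day 10 (6.65-fold lower, adjusted p = 2.04e-10). Its second, dimmer probe was lower too, by 0.62 at day 3 and 0.91 at day 10.

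The Slc25a34 window is shown because it belongs to the member with the largest fall and is the only member window with the short site AAGGTCA. It is chr4:141623785-141624084 (minus strand, GRCm38.p6), with the short site in capitals as its reverse complement, beginning 119 bases before the start.
Slc25a34: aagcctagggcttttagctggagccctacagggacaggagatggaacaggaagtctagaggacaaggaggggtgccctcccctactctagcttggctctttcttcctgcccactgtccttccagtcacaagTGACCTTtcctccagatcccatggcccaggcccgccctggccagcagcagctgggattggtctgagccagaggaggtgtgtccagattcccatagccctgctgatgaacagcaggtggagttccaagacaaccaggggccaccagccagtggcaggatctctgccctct

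Slc25a35, another orphan carrier, had log2 values of 7.60, 7.47, 7.38, 7.45 and 7.63 in the controls, 7.24, 7.32, 7.23 and 7.28 at day 2, 6.64, 6.37 and 6.64 at day 3, 6.83, 7.07 and 7.10 at day 10, and 7.62, 7.59, 7.41 and 7.52 at day 28. The day 3 arrays were the lowest, the day 10 arrays lay between them and the controls, and neither overlapped the controls. Slc25a35 fell by 0.96 ± 0.11 (SE) at day 3 (1.94-fold lower, adjusted p = 4.95e-07) and by 0.50 ± 0.11 at day 10 (adjusted p = 0.000927). Slc25a45 had log2 values of 7.66, 7.82, 7.59, 8.19 and 7.97 in the controls, 7.85, 7.69, 8.17 and 7.84 at day 2, 8.12, 8.76 and 8.68 at day 3, 9.15, 8.63 and 8.79 at day 10, and 7.94, 8.16, 7.80 and 7.68 at day 28. All day 10 arrays lay above every control, and day 3 replicate 1 lay within them. Slc25a45 was 0.67 ± 0.17 higher at day 3 (adjusted p = 0.00347) and 1.01 ± 0.17 higher at day 10 (2.02-fold, adjusted p = 3.28e-05). Slc25a46, an outer membrane protein of mitochondrial fission and fusion, fell by 0.46 at day 3 (adjusted p = 0.0382), a call lost without control replicate 1, 2 or 3, without day 3 replicate 2 or 3, without background correction, after cyclic loess and when only both groups were fitted. Slc25a47 fell by 0.69 at day 10 (adjusted p = 0.00212), and Slc25a53 was not called.

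**Figure D4:**
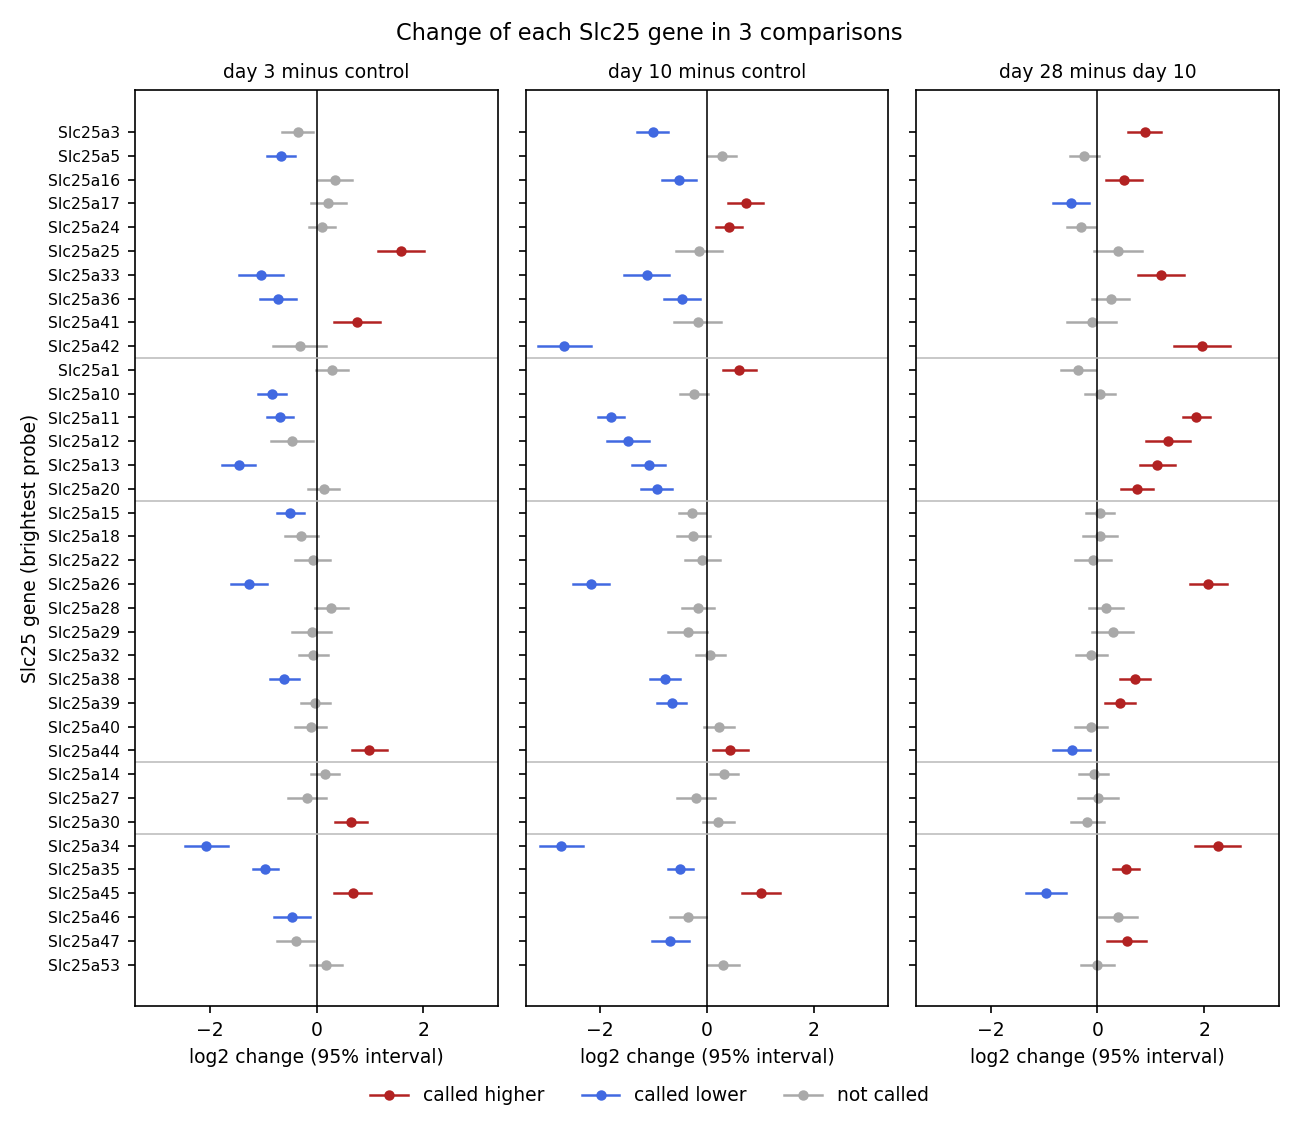
Log2 change with 95% interval of the brightest probe of each of 36 Slc25 genes at day 3 and day 10 against control and at day 28 against day 10. Red marks probes called higher, blue those called lower and grey those not called. Slc25a25 and Slc25a5 are called at day 3 and not at day 10, and Slc25a42, Slc25a12 and Slc25a20 at day 10 and not at day 3.

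Day 28 against day 10 was higher for 14 of the 36 genes and lower for Slc25a17, Slc25a44 and Slc25a45. Of these calls, that of Slc25a44 (adjusted p = 0.0294) was lost with a replicate block (adjusted p = 0.0595), without any 1 of the day 10 arrays and without day 28 replicate 1 or 2. That of Slc25a17 was lost without day 10 replicate 1 or 2 or day 28 replicate 1 or 2, and that of Slc25a16 with a replicate block (adjusted p = 0.0532) and without day 10 replicate 1 or day 28 replicate 4. Slc25a39 lost its call without day 10 replicate 2 or 3 or day 28 replicate 1, and Slc25a47 without day 10 replicate 3 or day 28 replicate 4. The largest rises were those of Slc25a34 (2.25 ± 0.20 SE, 4.77-fold, adjusted p = 1.3e-08), Slc25a26 (2.08 ± 0.17, adjusted p = 2.93e-09), Slc25a42 (1.96 ± 0.25, adjusted p = 1.67e-06) and Slc25a11 (1.85 ± 0.12, adjusted p = 1.81e-10). Slc25a45 fell by 0.96 ± 0.18 at day 28 against day 10 (adjusted p = 0.000144). This comparison shares its day 10 arrays with day 10 against control, so neither set of values supports the other.

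Against control, the smallest adjusted p among Slc25 probes at day 28 was 0.105, for Slc25a42 (-0.71 ± 0.22 SE). Slc25a42 was called lower at day 28 without control replicate 5 (-0.83, adjusted p = 0.0384), with controls 1 to 3 alone (-0.96, adjusted p = 0.0119), with array weights (-0.80, adjusted p = 0.0119) and with a replicate block (-0.83, adjusted p = 0.0307). In controls 4 and 5 it averaged 9.26, against 9.88 in controls 1 to 3. Slc25a34 differed by -0.48 ± 0.18 at day 28 (adjusted p = 0.178), with all 4 arrays below all 5 controls, and its dimmer probe was called lower with controls 1 to 3 alone (-0.53, adjusted p = 0.0252).

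Pairs of carriers of like substrate were compared within arrays, as the log2 difference between both genes at each time against control. Of 6 pairs, 4 could be formed, giving 16 exact two-sided permutation tests, and 0 passed after Benjamini-Hochberg adjustment (smallest adjusted p = 0.19). With these group sizes no test could pass the adjustment alone, even at its smallest possible p-value. The 0 therefore does not show that the genes of a pair changed alike. At an unadjusted p under 0.05 there were 3. The change of Slc25a13 minus that of Slc25a12 was -0.66 at day 2 (n = 4 and 5, exact permutation p = 0.0159) and -1.00 at day 3 (n = 3 and 5, exact permutation p = 0.0357). Slc25a24 minus Slc25a25 gave -1.48 at day 3 (n = 3 and 5, exact permutation p = 0.0357). These are the smallest p-values the group sizes allow, and in all 3 the within-array differences of the groups did not overlap. Slc25a22 with Slc25a18 (glutamate) and Slc25a33 with Slc25a36 had exact permutation p-values of 0.143 or more.

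**Figure D5:**
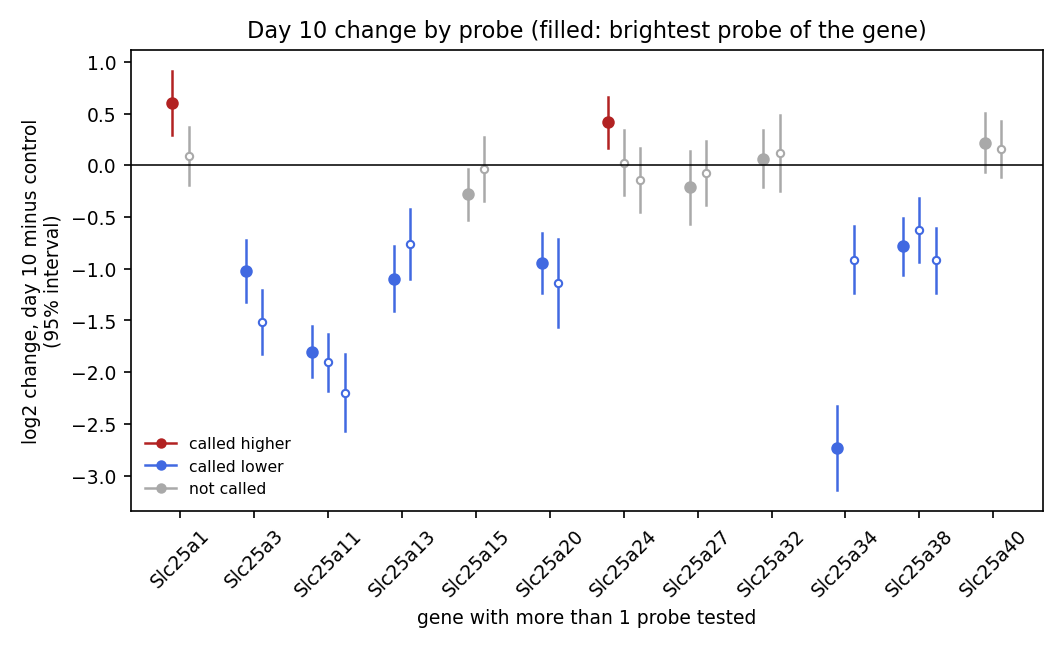
Log2 change at day 10 against control, with 95% interval, of every tested probe of the 12 Slc25 genes with more than 1 tested probe; filled points are the brightest probe of the gene. The probes of Slc25a3, Slc25a11, Slc25a13, Slc25a20, Slc25a34 and Slc25a38 are all called lower, and those of Slc25a1 and Slc25a24 differ in their call.

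Genes that work beside the carriers were counted from written lists, to be read beside the 18.1% of all probes lower and 17.7% higher at day 10 and the 14.3% lower and 14.1% higher at day 3. Of 22 enzyme partners tested, 15 were lower and 2 higher at day 10 (median -0.75), against 4 lower and 3 higher at day 3 (median 0.00). Of 16 other transporters of the mitochondrial membranes, 7 were lower and 4 higher at day 10, and Tspo, an outer membrane protein abundant in macrophages, was among the higher ones (2.33, adjusted p = 8.12e-10). Of 14 genes of the protein import machinery of the mitochondrial membranes, 4 were lower and 0 higher at day 10 and 7 were lower and 0 higher at day 3.

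Of 13 regulators of mitochondrial genes, 8 were lower and 2 higher at day 10, and 6 were lower and 1 higher at day 3. Ppargc1a, the coactivator of mitochondrial biogenesis, fell by 2.22 ± 0.37 (SE) at day 2 (adjusted p = 0.000463), fell by 3.51 ± 0.40 at day 3 (adjusted p = 2.63e-07) and by 1.87 ± 0.40 at day 10 (adjusted p = 0.000525). Esrrb, an estrogen-related receptor, differed by 0.08 at day 2 (adjusted p = 0.83) and fell by 0.86 at day 3 and by 1.83 at day 10 (adjusted p = 1.97e-09).

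Markers of cell types moved over the same days. Beside the counts at day 10 stand 18.1% of all probes lower and 17.7% higher. At day 10, 5 of 7 cardiomyocyte markers were lower (median -1.34, with Tnni3 at -1.48 and Myh6 at -1.37) and their summed intensity ranged from 141217 to 158097, against 181705 to 226210 in the controls. Of 11 macrophage markers, 10 were higher (median 2.20) and the sum ranged from 52288 to 85548 at day 10, against 7619 to 18300.3 in the controls. All 6 neutrophil markers were higher (sum 7479 to 11536, against 1194 to 2722), as were all 5 tested markers of proliferating cells (sum 3223 to 5944, against 1114 to 1375) and 4 of 8 fibroblast markers (sum 28794 to 34639, against 26899.5 to 35092). Of 8 endothelial markers, 4 were lower (sum 9440.2 to 11437, against 11480.2 to 15055).

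At day 3 the cardiomyocyte sum was 155150 to 165323 with 4 of 7 markers lower, and the macrophage sum was 13424 to 23736 with 2 of 11 higher. The neutrophil sum ranged widely at day 3, from 1332 to 7267, against 1194 to 2722 in the controls. Of 6 neutrophil markers 0 was called at day 3 (median 0.61). Of all probes, 14.3% were lower and 14.1% higher at day 3. At day 28 the cardiomyocyte sum was 172715 to 183800 and the macrophage sum 12600.3 to 16563, with 1 marker of each list called. Of all probes, 0.690% were lower and 1.11% higher at day 28. The fibroblast and endothelial sums at day 28 lay above every control (37530 to 47288, against 26899.5 to 35092, and 16274 to 17374, against 11480.2 to 15055), with 2 of 8 and 1 of 8 markers called higher. Of the erythroid, brown adipocyte and skeletal muscle lists, 2 of 5, 1 of 3 and 1 of 4 tested genes were lower at day 10, with 1 skeletal muscle marker higher. With so few genes, these counts are not far from the 18.1% of all probes lower and 17.7% higher. The skeletal muscle sum was 18514 to 19136 at day 3 and 4857 to 8311 at day 10, against 14241 to 18449 in the controls, and the brown adipocyte sum was 3178 to 3538 at day 3 and 1637 to 1775 at day 10, against 2369 to 2617. The median log2 changes of these lists at day 10 were -0.14 and -0.03, so the sums do not stand for each list as a whole. The skeletal muscle list includes Ckm, which is also on the list of enzyme partners. The erythroid sum at day 10 overlapped the controls (21503 to 57107, against 39710.4 to 67602). The part of these shifts in the Slc25 changes was not tested, and in whole tissue fewer cells of a type and less RNA per cell cannot be told apart.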

How the data were processed

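The 19 arrays are Illumina mouse bead arrays of left ventricle RNA (TRIzol extraction, amplified to biotinylated cRNA, per the labels' protocols). The values used are the deposited intensities of 25697 probes on a linear scale. The authors had made the arrays comparable before deposit: the sorted values of all 19 columns are identical, with a median of 191.479. The aligner of probes, the program and any background subtraction are not given in the sources used here. A second table of signals and detection p-values has 38 columns whose codes match no label, and it was not used.

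Intensities were corrected with limma's normexp method (offset 50) and put on the log2 scale, and probes with a mean intensity under the 25th percentile (162.92) were left out. Quantile normalization was not repeated. With limma 3.58.1 in R 4.3.3 (lmFit and eBayes), each group received its own mean in a fit of all 19 arrays, and each of 7 comparisons had its p-values adjusted over 19273 probes (Benjamini-Hochberg). The fit was tested on simulated data. Pairs of genes were compared by exact permutation tests in scipy 1.17.1 under Python 3.11.15, and figures were drawn with matplotlib 3.10.9.

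Genes described array by array were those with the largest changes called against control, up to 10 in each direction (8 rises and 10 falls qualified), plus chosen carriers of phosphate, ADP/ATP, the malate-aspartate shuttle, carnitine and iron. From the pathway lists the 2 genes with the smallest adjusted p at day 10 were eligible to be named, and Ppargc1a. The members, lists and tests were chosen with earlier results of these data known. Alternatives were no background correction, no filter, a filter at the 50th percentile, cyclic loess, only the groups compared, array weights, trended and robust variances, a replicate block, 1 probe per gene, controls 1 to 3 alone, and leaving out each array. Replicate numbers were checked for pairing: of 33 same-numbered pairs of arrays, 3 had deviations from the group means that correlated above 0.1 (range -0.165 to 0.125), so the numbers were not taken as pairs. No pair of arrays was a duplicate (highest correlation 0.988). Precision is limited by how few arrays there are. Promoter windows and names are from RefSeq (GRCm38.p6), and all 39 members matched by symbol.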

Additional observations from a re-analysis of the deposited data

Results flagged for a closer look

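Of 60 groups of 4 or more arrays examined for named genes, 3 held an array far from the others by Dixon's 95% criterion, and chance flags about 5% of groups. Slc25a12 at day 28 had replicate 3 at 11.36, above the other 3 arrays. Slc25a44 at day 2 had replicate 3 at 8.403, above the other 3. Slc25a5 had control replicate 4 at 13.98, below the other controls. All are log2 values.

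In 11 cases the changes of a named gene against control at 2 times pointed opposite ways and the difference between these times was itself called by limma. For Slc25a11, Slc25a13, Slc25a33 and Slc25a35 the day 10 change was negative and the day 28 change slightly positive, and day 28 minus day 10 was 1.85, 1.12, 1.18 and 0.53. The positive day 28 sign is that of the brightest probe: at day 28 the other Slc25a11 probes differed from control by -0.27 and -0.20 and the second Slc25a13 probe by -0.23, none of them called. For Slc25a44 the day 10 change was positive and the day 28 change slightly negative, with day 28 minus day 10 at -0.49, a call lost with a replicate block (adjusted p = 0.0595), without any 1 of the day 10 arrays (adjusted p = 0.0667, 0.0662 and 0.0834) and without day 28 replicate 1 or 2. Slc25a20 and Slc25a25 were above control at day 3 and below it at day 10, and day 10 minus day 3 was -1.07 and -1.73. Slc25a41 was above control at day 3 alone, with day 3 minus day 2 at 0.82 and day 10 minus day 3 at -0.94. Both are descriptions, since Slc25a41 passed the intensity filter through its day 3 arrays, and the call of day 3 against day 2 was lost when only both groups were fitted (adjusted p = 0.0746) and without day 3 replicate 2 (adjusted p = 0.103) or 3 (adjusted p = 0.102). Slc25a5 was below control at day 3 alone, with day 3 minus day 2 at -0.79 and day 10 minus day 3 at 0.95. These values share arrays with the comparisons that picked them out.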

How the results depend on the processing

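Of 1333 values of single named genes under the processing alternatives, 1292 kept their direction and side of the threshold, 19 lost a call, 22 gained one and 0 turned round. Leaving out single arrays kept 1012 of 1080, lost 59 and gained 9. The count of Slc25 probes called at day 28 against control, 0 with all arrays, was 1 with a replicate block, 1 with array weights, 2 with controls 1 to 3 alone and 0 to 1 over the left-out arrays. The count at day 3 against day 2, 16, was 10 when only both groups were fitted, which leaves fewer arrays for the spread, and 8 to 19 over the left-out arrays. Left-out arrays gave 4 to 7 calls at day 2 (6 with all), 21 to 26 at day 3 (25), 25 to 30 at day 10 (28), 21 to 25 for day 28 against day 10 (25) and 17 to 21 for day 10 against day 3 (23). With the replicate number as a block, counts were 4 at day 2, 25 at day 3, 29 at day 10, 23 for day 28 against day 10, 17 for day 3 against day 2 and 22 for day 10 against day 3. The cause of these moves was not tested. Cyclic loess moved the median change of all probes by less than 0.1 log2 in every comparison. The sorted values of all 19 columns are identical, so this median lies near 0 in any case and says nothing about single genes. Groups of 3 to 5 arrays, the absence of detection calls and the dimness of Slc25a41, Slc25a40, Slc25a53 and Slc25a27 limit what could be called.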
